A study of Mus musculus with 84 samples.

Results

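Among the genes that astrocytes use to take up and convert glutamate, 6 were followed through 2 RNA sequencing experiments on sorted mouse astrocytes. They are grouped by function: the glutamate transporters Slc1a2 (GLT-1) and Slc1a3 (GLAST), the neutral amino acid transporter Slc1a4 (ASCT1), the enzymes Glul (glutamine synthetase) and Glud1 (glutamate dehydrogenase), and the glutamine transporter Slc38a3 (SNAT3). All 6 were found among the 48526 genes listed for the first experiment and the 25773 listed for the second. The first experiment followed experimental autoimmune encephalomyelitis (EAE) in C57BL/6J mice, in which immunization with a myelin peptide (MOG35-55) in complete Freund's adjuvant, together with pertussis toxin, leads to an inflammatory attack on myelin and to paralysis. Its 66 libraries fall into 12 groups. Spinal cord GLASTneg astrocytes of unimmunized controls (C), of mice at score 1 with a limp tail (E1), at score 4 with paralysed hind legs (E4) and in chronic disease (Ech) gave 5, 5, 6 and 6 libraries. Hindbrain GLASTneg astrocytes gave 5, 6, 6 and 6, and hindbrain GLASTpos astrocytes 5, 6, 6 and 4. The mice were females of 10 weeks when immunized. The second experiment compared untreated wild-type FVB/N mice, whose age is not given in the sources used here, with 3 libraries each of cells labelled forebrain GLASTneg, forebrain GLASTpos, hindbrain GLASTneg, hindbrain GLASTpos and spinal cord GLASTneg. It added 3 libraries of primary neonatal C57BL/6J astrocytes, grown from the cerebrum. These were given medium conditioned by L929 cells and kept after microglia were shaken off.

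Astrocytes clear the glutamate that neurons release. GLT-1 and GLAST carry it into the cell together with sodium, glutamine synthetase joins it to ammonia to make glutamine, and SNAT3 releases glutamine for neurons to turn back into transmitter. Glutamate dehydrogenase instead feeds the carbon of glutamate into the tricarboxylic acid cycle, and ASCT1 exchanges serine, alanine and other neutral amino acids. The sort used antibodies to ACSA-2, an epitope of the sodium pump subunit Atp1b2, and to GLAST, and left out cells with the leukocyte antigens CD11B and CD45. Slc1a3 encodes the antigen that divided GLASTneg from GLASTpos cells, so its difference between those populations was set by the sort and is no finding. A library of isolated cells came from 1 mouse or of 2 pooled mice, and only GLASTneg cells of the spinal cord were profiled, so GLASTpos astrocytes of that region are not described here.

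The genes lie on separate chromosomes of the mouse genome (GRCm38), with Slc1a2 (ENSMUSG00000005089) at chr2:102658659-102790784 on the plus strand, Slc1a3 (ENSMUSG00000005360) at chr15:8634124-8710764 on the minus strand and Slc1a4 (ENSMUSG00000020142) at chr11:20302180-20332713 on the minus strand. Glul (ENSMUSG00000026473) lies at chr1:153899944-153909723 and Glud1 (ENSMUSG00000021794) at chr14:34310727-34345265, both on the plus strand, and Slc38a3 (ENSMUSG00000010064) at chr9:107650634-107669530 on the minus strand. On the opposite strand, Gm13872 overlaps Slc1a2 and Teddm2 overlaps Glul. They held 8573 and 375 counts over the 66 libraries where the members held 800960 and 706304, and since the use of strand in counting is not stated, reads of the paired genes cannot be told apart. The 250 bases before the RefSeq transcription start are shown for 3 members whose level fell in diseased spinal cord, Slc1a3, Slc1a4 and Glud1, and for Glul, which was not called at any stage there. They are RefSeq sequences of build GRCm38.p6, written 5′ to 3′ in the direction of transcription. In the order shown they come from chr15:8710808-8711057 (minus strand), chr11:20332714-20332963 (minus strand), chr14:34310477-34310726 (plus strand) and chr1:153899679-153899928 (plus strand). Capitals mark each CCAAT on either strand, so that ATTGG is the same motif read on the other strand.
Slc1a3: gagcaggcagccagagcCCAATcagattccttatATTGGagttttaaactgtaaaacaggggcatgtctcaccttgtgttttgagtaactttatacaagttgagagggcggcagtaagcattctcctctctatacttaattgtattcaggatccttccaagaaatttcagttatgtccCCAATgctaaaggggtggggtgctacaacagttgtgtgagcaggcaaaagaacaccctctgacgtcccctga
Slc1a4: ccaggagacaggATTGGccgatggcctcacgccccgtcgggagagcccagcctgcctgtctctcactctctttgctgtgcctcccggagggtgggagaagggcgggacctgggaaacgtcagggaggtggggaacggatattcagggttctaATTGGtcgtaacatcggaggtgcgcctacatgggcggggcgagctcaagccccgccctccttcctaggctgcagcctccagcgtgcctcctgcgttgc
Glud1: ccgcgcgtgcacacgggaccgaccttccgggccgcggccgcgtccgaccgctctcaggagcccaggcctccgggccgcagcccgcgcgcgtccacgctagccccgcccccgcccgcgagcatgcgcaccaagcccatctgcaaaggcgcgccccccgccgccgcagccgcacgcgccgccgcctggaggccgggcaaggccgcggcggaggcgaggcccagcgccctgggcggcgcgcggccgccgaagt
Glul: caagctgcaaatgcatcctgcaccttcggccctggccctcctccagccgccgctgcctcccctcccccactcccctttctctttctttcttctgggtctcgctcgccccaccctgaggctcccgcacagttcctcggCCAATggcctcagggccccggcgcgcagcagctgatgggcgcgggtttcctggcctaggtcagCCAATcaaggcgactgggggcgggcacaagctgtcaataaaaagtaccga
CCAAT, the letters bound by the factor NF-Y, was found at 3 places before Slc1a3, at 2 before Slc1a4, at 2 before Glul and at 0 before Glud1. Of 32851 RefSeq promoter windows of the same 250 bases, 33.8% held it at least once. GGGCGG on either strand, the GC box bound by Sp1, was found 1, 3, 3 and 1 times before Slc1a3, Slc1a4, Glud1 and Glul, and in 32.7% of all windows. TATAAA on either strand was found before Slc1a3 and not before the other 3 shown, and in 12.4% of all windows. The motifs were searched separately, and a match describes letters and not binding. The window listed for Slc1a2 starts 47779 bases inside the gene and is not shown, and Slc38a3 is named only, so 5 of the 6 members matched.

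Levels are given as CPM, a gene's counts per 1000000 counts of its library after edgeR's TMM scaling, as mean ± SD where summarised, and are compared within a gene only. The libraries count 3′ ends of transcripts and held 1313682 to 4895220 counts in EAE (median 2936680), 416768 to 1269316 in FVB/N and 2183464 to 8188074 in culture. A count of 3 stands for 0.613 to 2.28 CPM in EAE and 2.36 to 7.2 CPM in FVB/N, and this limit covers counting error only, because without molecular identifiers copied molecules are counted again. Every member had counts in every library, and the lowest count of any member in any EAE library was 11. A gene was called where the two-sided quasi-likelihood test of edgeR, adjusted over all genes of the fit by the Benjamini-Hochberg method, gave an adjusted p under 0.05. Nothing says that the libraries of a group came from separate sorts, so p measures the spread between these libraries, which may be technical in part.

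Several libraries stand apart or disagree with their labels. In the FVB/N experiment, markers of position went against the labelled region. Summed over 10 Hox genes of the trunk, which spinal cord astrocytes express, the libraries labelled hindbrain GLASTneg held 623 ± 65.4 CPM and those labelled spinal cord GLASTneg 0.4 ± 0.693. Summed over forebrain genes, libraries labelled hindbrain GLASTpos held 719 ± 44.9 CPM and those labelled forebrain GLASTpos 16.9 ± 12.1. Summed over markers of cerebellar Bergmann glia, those labelled spinal cord GLASTneg held 7914 ± 1035 CPM and those labelled hindbrain GLASTpos 1159 ± 121. The study's own list of libraries gives other names to 12 of these 15, and these sums go with the other names. FVB/N results are given by label with those under the other names beside them. In EAE, 1 spinal cord library at E1 (replicate 1) has hindbrain in its region field and spinal cord in its title. The 10 Hox genes summed to at least 175 CPM in each spinal cord E1 library and to at most 23.5 CPM in any hindbrain EAE library. The Hox sum of this library thus goes with its title. In the spinal cord at E4, replicate 2 had a sum of 12 myeloid markers of 4672 CPM, where the lowest of that group had 130. The EAE titles mark the sort by the letters A and AG, read here as GLASTneg and GLASTpos, and Slc1a3 was 1137 to 1771 CPM in A and 5484 to 9084 CPM in AG hindbrain control libraries. The first number in the brackets of an EAE title, called the title number here, takes 33 values. Each was found within 1 stage, and 26 are shared by 2 or 3 libraries. Some titles carry a further number, which was left out, so more libraries may be linked than these counts show. What such a number stands for is not given in the sources used here, so libraries of different populations may share mice, and comparisons between populations were fitted as if they did not.

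**Figure D1:**
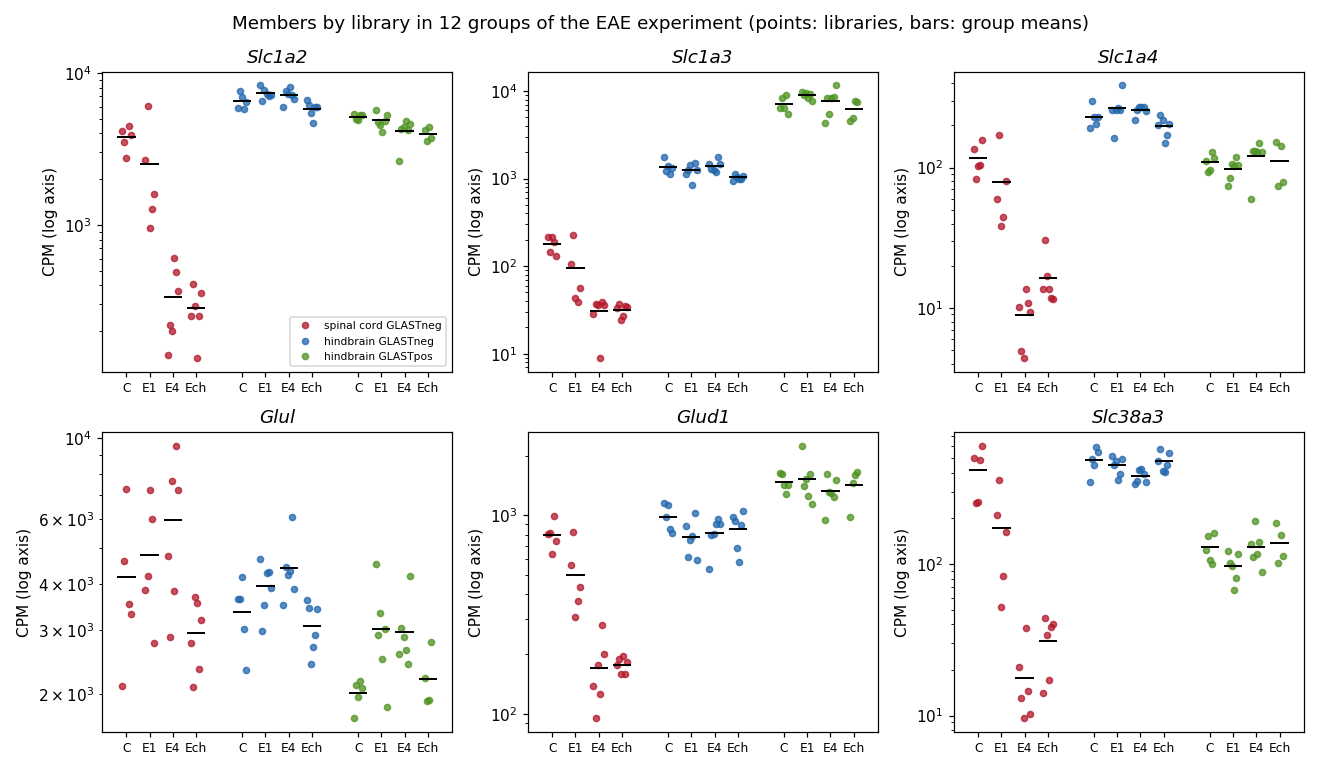
Level of each member in CPM (log axis) in the 66 libraries of the EAE experiment, by population and stage (C, unimmunized; E1, score 1; E4, score 4; Ech, chronic). Points are libraries and bars are group means. In spinal cord the E4 and Ech libraries of 5 members lie below all controls, while those of Glul overlap them.

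In spinal cord libraries sorted as GLASTneg astrocytes, 5 of the 6 members fell at E4 and in chronic disease. Glul was not called at any stage against the controls. The astrocyte markers of these libraries summed to a mean of 58027 CPM in controls, 4792 at E4 and 6581 at Ech. The oligodendrocyte markers summed to a mean of 22082 CPM in controls, 53342 at E4 and 32629 at Ech. The oligodendrocyte sum was thus the larger at E4 and Ech, and its part in the members' falls was not tested. At E4, Slc38a3 was 23.9-fold lower than in controls, Slc1a4 13.2-fold, Slc1a2 11.2-fold, Slc1a3 5.77-fold and Glud1 4.7-fold. The 5 of 6 called stand beside 22.4% of the 23324 genes tested in that comparison. In chronic disease the same 5 members were called, beside 18.7% of all genes, with Slc38a3 13.4-fold, Slc1a2 13.3-fold, Slc1a4 7.15-fold, Slc1a3 5.6-fold and Glud1 4.51-fold lower. At E1, 3 of 6 were called lower (Slc38a3, Slc1a3 and Glud1), beside 8.42% of all genes. For the 5 that fell, no library at E4 or Ech reached the lowest control, where the libraries did not overlap for 12.4% and 11.8% of all genes. At E1 each of the 6 overlapped with the controls (4.28% of all genes did not). The median log2 fold change over all genes was 0 in each of these comparisons.

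Slc1a2, whose product takes up most of the glutamate in the adult forebrain, stood at 4127, 3518, 2749, 4485 and 3919 CPM in the 5 control spinal cord libraries. At E1 the libraries held 2656, 6097, 951, 1267 and 1600 CPM. Thus replicate 2 of E1 lay above every control and the other 4 lay below every control. At E4 the 6 libraries ran from 139 through a median of 294 to 602 CPM, and in chronic disease from 133 through a median of 272 to 409 CPM. The log2 fold change was -0.58 ± 0.27 (SE) at E1 (adjusted p = 0.16 by edgeR), -3.48 ± 0.28 at E4 (adjusted p = 4.5e-17) and -3.74 ± 0.28 at Ech (adjusted p = 4.2e-18). The fall was thus called at E4 and Ech.

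Slc1a3 was already low in the GLASTneg cells of control spinal cord, at 215, 144, 214, 191 and 130 CPM. The E1 libraries gave 106, 226, 43.4, 38.7 and 56.8 CPM, with replicate 2 again above all controls and the other 4 below them. At E4 values ran from 8.94 through a median of 35.9 to 39.1 CPM, and at Ech from 24.5 through a median of 34.1 to 36.7 CPM. Both later stages lay wholly below the controls. The log2 fold change was -0.93 ± 0.27 (SE) at E1 (adjusted p = 0.021 by edgeR), -2.53 ± 0.27 at E4 (adjusted p = 5.2e-12) and -2.49 ± 0.27 at Ech (adjusted p = 1.1e-11). These 3 calls were lost by limma-voom with the title number as a random block (adjusted p = 0.91, 0.88 and 0.76), and kept by limma-trend with the same block.

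Slc1a4, through which astrocytes exchange serine and alanine, was 137, 83.6, 103, 105 and 157 CPM in the controls and 59.7, 171, 38.3, 44.5 and 80.1 CPM at E1. At E4 the libraries ran from 4.41 through a median of 9.74 to 13.6 CPM, which rests on 11 to 48 counts a library. In chronic disease they ran from 11.5 through a median of 13.6 to 30.6 CPM. Controls overlapped with E1, where replicate 2 was the highest of all, and not with E4 or Ech. The log2 fold change was -0.58 ± 0.27 (SE) at E1 (adjusted p = 0.16 by edgeR), -3.72 ± 0.29 at E4 (adjusted p = 1.3e-17) and -2.84 ± 0.27 at Ech (adjusted p = 9.0e-14).

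Slc38a3, the glutamine exporter, had the largest log2 fold change of the 6 at E1 and at E4. Its controls held 500, 253, 256, 488 and 604 CPM, and the E1 libraries 212, 359, 52.1, 83.2 and 162 CPM. At E4 they ran from 9.6 through a median of 13.8 to 37.7 CPM, and at Ech from 14.1 through a median of 36.1 to 43.7 CPM. Of the E1 libraries, replicate 2 lay among the controls and the other 4 below them, as did all E4 and Ech libraries. The log2 fold change was -1.27 ± 0.30 (SE) at E1 (adjusted p = 0.0025 by edgeR), -4.58 ± 0.32 at E4 (adjusted p = 2.3e-19) and -3.74 ± 0.31 at Ech (adjusted p = 1.6e-16).

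Glud1, the mitochondrial enzyme that opens glutamate to oxidation, fell the least of the 5 at E4 and Ech. It was 804, 816, 639, 993 and 746 CPM in the controls and 564, 826, 308, 370 and 435 CPM at E1. At E4 it ran from 95.2 through a median of 157 to 281 CPM, and at Ech from 158 through a median of 180 to 197 CPM. The chronic libraries lay close together (SD 15.8 CPM around a mean of 177), and both later stages lay below every control. The log2 fold change was -0.68 ± 0.22 (SE) at E1 (adjusted p = 0.036 by edgeR), -2.23 ± 0.21 at E4 (adjusted p = 4.0e-14) and -2.17 ± 0.21 at Ech (adjusted p = 1.4e-13).

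Glul, the enzyme that makes glutamine, took another course. The controls held 2113, 4612, 7283, 3535 and 3322 CPM and the E1 libraries 3850, 4207, 7203, 6032 and 2760 CPM. At E4 the libraries ran from 2868 through a median of 5990 to 9530 CPM and at Ech from 2093 through a median of 2976 to 3693 CPM, and every stage overlapped with the controls. The log2 fold change was 0.20 ± 0.24 (SE) at E1 (adjusted p = 0.69 by edgeR), 0.52 ± 0.24 at E4 (adjusted p = 0.10) and -0.51 ± 0.23 at Ech (adjusted p = 0.12). The 95% interval (the normal interval from the SE) was 0.06 to 0.98 at E4 and -0.96 to -0.05 at Ech. Without control replicate 3, the highest of the controls, Glul at E4 was 0.815 and was called (adjusted p = 0.0091 by edgeR). Without E4 replicate 2, the lowest of the E4 group, it was 0.66 and was called too (adjusted p = 0.035). Without control replicate 1, the lowest control, Glul in chronic disease was -0.67 and was called (adjusted p = 0.041).

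**Figure D2:**
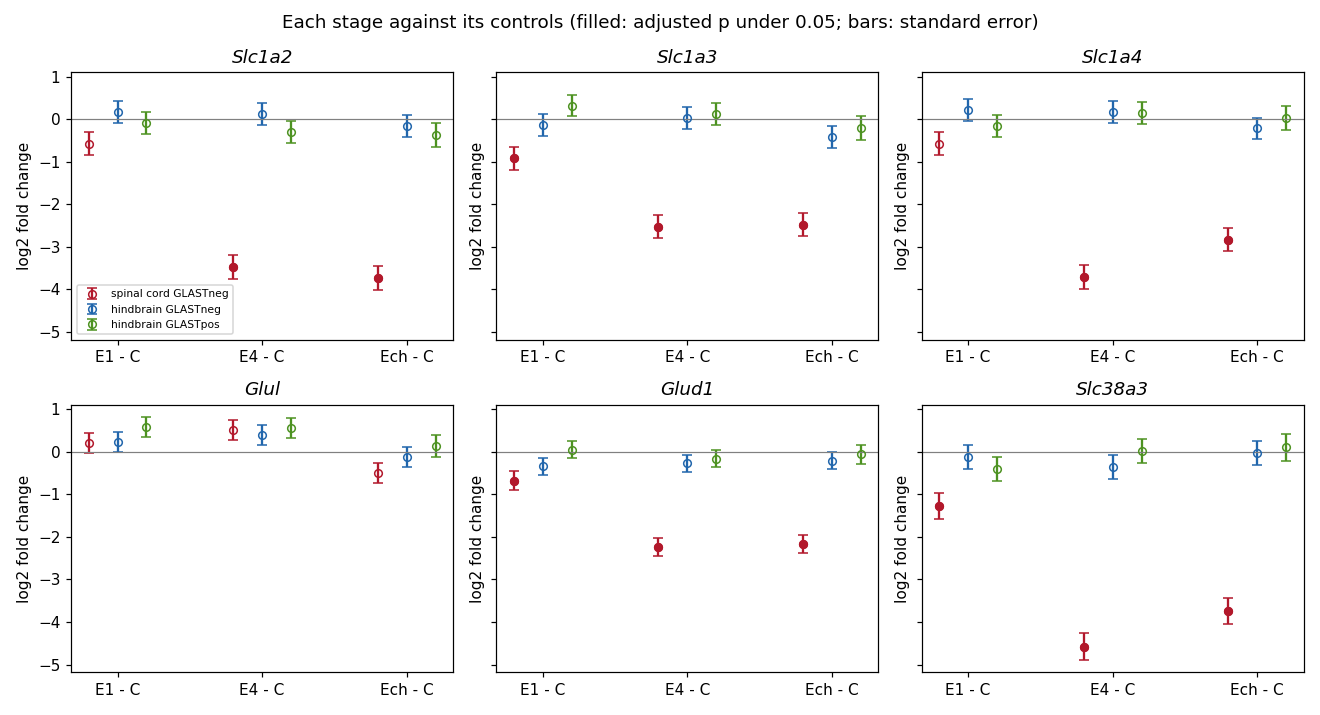
Log2 fold change of each member at E1, E4 and Ech against the controls of its population, with a standard error derived from edgeR's quasi-likelihood F statistic. Filled points have an adjusted p under 0.05, and all of them belong to spinal cord and lie below 0 (3 members at E1, 5 at E4 and 5 at Ech).

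From E1 to E4, 5 of 6 members were called lower, beside 5.97% of all genes. Slc38a3 changed by -3.30 ± 0.31 on the log2 scale, Slc1a4 by -3.14 ± 0.28, Slc1a2 by -2.90 ± 0.27, Slc1a3 by -1.60 ± 0.27 and Glud1 by -1.56 ± 0.21. Glul was 0.31 ± 0.24 (adjusted p = 0.50 by edgeR). The libraries of the 2 stages did not overlap for 4 members, beside 1.97% of all genes, and for Slc1a3 the highest E4 library (39.1 CPM) just exceeded the lowest E1 library (38.7).

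From E4 to chronic disease 2 of 6 members were called, beside 4.46% of all genes, and all 6 overlapped, while 2.34% of all genes did not. Glul was -1.02 ± 0.23 on the log2 scale (adjusted p = 0.002 by edgeR), and its chronic libraries reached at most 3693 CPM while those at E4 ran to 9530. Slc1a4 was 0.88 ± 0.27 (adjusted p = 0.046), and this call was lost in 14 of 24 alternatives, among them those without chronic replicate 2 or 3 and without E4 replicate 1, 2, 3 or 6. Slc38a3 was 0.83 ± 0.29 (adjusted p = 0.082). Slc1a2, Slc1a3 and Glud1 were -0.25 ± 0.25, 0.04 ± 0.26 and 0.06 ± 0.20, with 95% intervals of -0.74 to 0.23, -0.46 to 0.55 and -0.33 to 0.45.

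The calls at E1 rested on single libraries and on the fit. Without E1 replicate 2, whose Slc1a2, Slc1a3 and Slc1a4 lay above the controls, 5 of 6 members were called at E1, with Slc1a2 at -1.22 and Slc1a4 at -1.07. Without control replicate 1, or E1 replicate 3, 4 or 5, the count was 1, and without control replicate 2 or 4 it was 2. In a fit of the spinal cord libraries alone the count at E1 was 0, and Slc38a3 was -1.25 with an adjusted p of 0.061 by edgeR. The sheet numbers in the titles were cut at 57, a value set here and not marked in the titles, where 56 and 57 both occur. At or above it were 5 of 5 control, 4 of 5 E1, 1 of 6 E4 and 4 of 6 chronic spinal cord libraries. With that range as a covariate, 5 members were called at E4 and at Ech, and 0 at E1.

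Other transcripts of these libraries moved with the members, and in bulk libraries fewer cells of a type and less RNA per cell cannot be told apart. The 12 astrocyte markers summed to 40949 to 67161 CPM in control spinal cord, 9464 to 52760 at E1, 3427 to 6727 at E4 and 4537 to 7956 at Ech, and 0 of the 12 were at 0 in a whole group. Of the 12, 8 were called lower and 1 higher at E1, and 10 lower and 1 higher at E4 and again at Ech, with a median log2 fold change of -1.07, -4.02 and -4.1. Gja1, the main gap junction protein of astrocytes, fell by 4.93 on the log2 scale at E4, and Atp1b2, which carries the sorted epitope, by 4.21. The gene called higher was Gfap, the intermediate filament of reactive astrocytes, at E1 (1.98) and E4 (1.1), and S100b at Ech (0.90). The 10 oligodendrocyte markers summed to 14353 to 41867 CPM in controls, 26907 to 62060 at E1, 30355 to 77670 at E4 and 25389 to 41601 at Ech. The 12 myeloid markers summed to 14.4 to 42.6 CPM in controls, with Lyz2 at 0, and to 130 to 4672 at E4 and 55.1 to 176 at Ech. The 6 T cell markers summed to at most 1.26 CPM in controls, with Cd2, Cd3d, Cd3e and Cd3g at 0, and to 6.82 to 56.8 CPM at E4. The 4 markers of oligodendrocyte precursors summed to 359 to 805 CPM in controls, 483 to 813 at E4 and 727 to 2582 at Ech, where 4 of 4 were called higher (median log2 fold change 1.98). The 5 neuronal markers summed to 160 to 291 CPM in controls and 474 to 707 at E4, where Tubb3, a tubulin, was called higher (4.84) and the other 4 lower. The 10 Hox genes summed to 428 to 719 CPM in controls and 109 to 206 at E4. The part of these shifts in the members' falls and in the course of Glul was not tested. Without E4 replicate 2, which had the highest myeloid sum, the 5 members were called lower at E4 as before, in a fit chosen after seeing the data. That fit kept the other E4 libraries with their astrocyte and oligodendrocyte sums, so it does not test the part of these shifts.

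**Figure D3:**
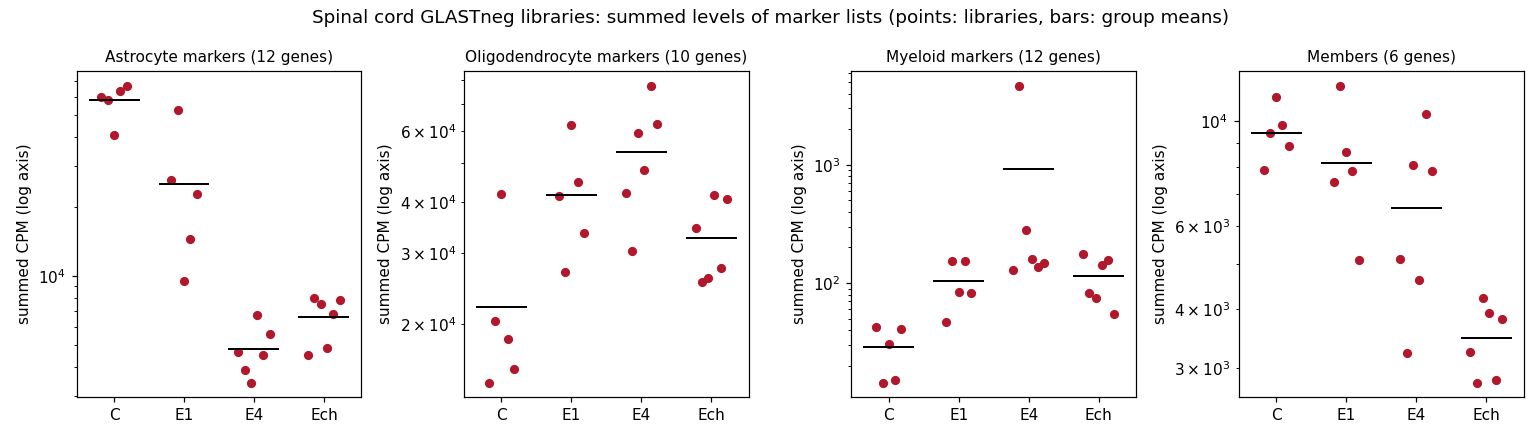
Summed CPM (log axis) of 12 astrocyte, 10 oligodendrocyte and 12 myeloid markers and of the 6 members in each spinal cord GLASTneg library by stage. Points are libraries and bars are means. Astrocyte sums at E4 (3427 to 6727 CPM) and Ech (4537 to 7956) lie below all controls. Oligodendrocyte sums overlap with the controls, with medians of 18341 CPM in controls, 41551 at E1, 53757 at E4 and 31051 at Ech.

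Set against the other astrocyte transcripts of the same library, the members differed among themselves. For each library the mean log2(CPM + 1) of the 12 astrocyte markers was subtracted from that of the member, and stages were compared by a two-sided exact permutation test, adjusted over 18 tests. Slc1a2 was 1.62 in controls, 1.65 at E4 and 1.57 at Ech on this relative scale, a difference of 0.02 and -0.05 (unadjusted exact permutation p = 0.857 and 0.818). Slc38a3 differed from controls by -0.90 at E4 and 0.02 at Ech (unadjusted exact permutation p = 0.0779 and 0.97). Glul stood higher than in controls by 4.18 at E4 and 3.33 at Ech, and every Glul library of both stages lay above every control. Whether its transcripts came from the astrocytes or from other cells of these libraries was not tested. Glud1 stood higher by 1.36 and 1.59. By the exact permutation test Glul passed at both stages (adjusted p = 0.0156 for each), as did Glud1 (0.039 and 0.0156). Slc1a3 (1.31) and Slc1a4 (0.93) passed at Ech (adjusted exact permutation p = 0.0156 for each). At E4 Slc1a3 differed by 1.07 and Slc1a4 by 0.03, and neither passed (unadjusted exact permutation p = 0.13 and 0.961). At E1, 0 of 6 passed, with the lowest unadjusted exact permutation p at 0.103, where 5 against 5 libraries allow 0.00794 at the least. The smallest p that 6 against 5 libraries allow is 0.00433.

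**Figure D4:**
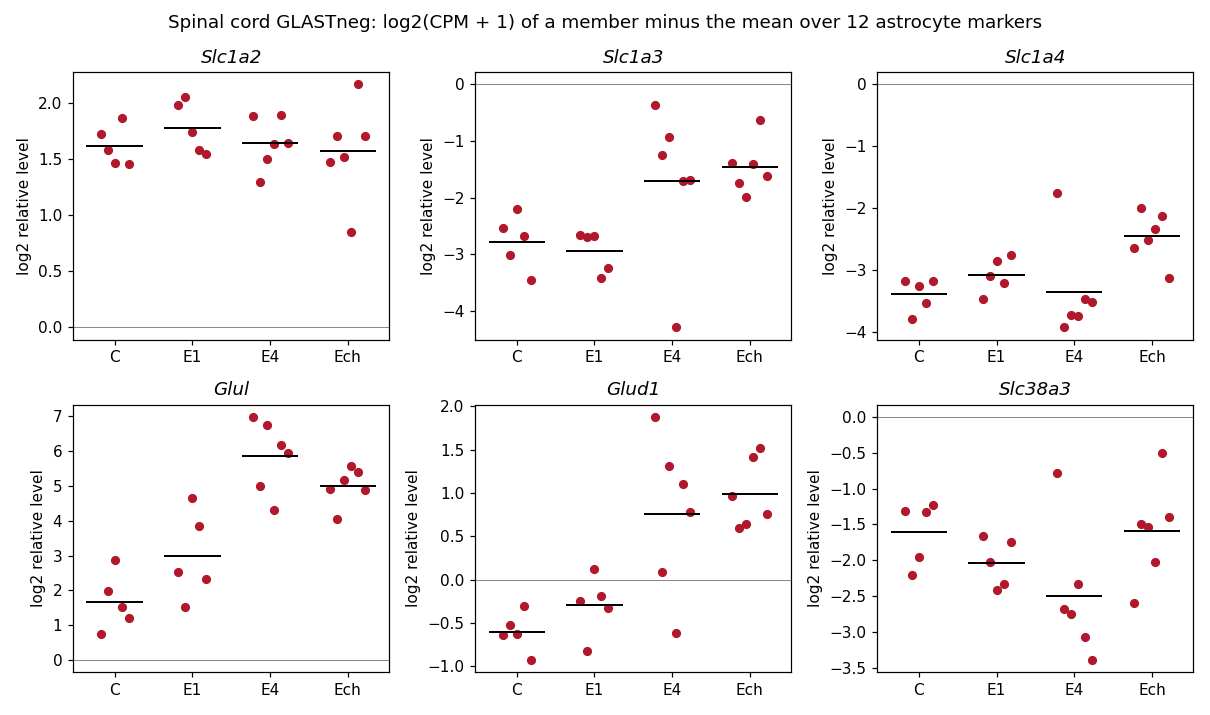
Level of each member in spinal cord GLASTneg libraries relative to the astrocyte markers, as log2(CPM + 1) minus the mean over 12 markers, by stage. Points are libraries and bars are means. The means of Slc1a2 lie between 1.57 and 1.79, while those of Glul run from 1.67 in controls to 5.86 at E4.

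In the hindbrain, 0 members were called by edgeR at any stage in either population. In GLASTneg cells 0 of 6 were called at E1, E4 and Ech, beside 0.677%, 0.755% and 0.197% of all genes, and in GLASTpos cells 0 of 6, beside 1.58%, 2.18% and 1.43%. At an unadjusted p under 0.05 there were 0 in GLASTneg cells at each stage, beside 9.58%, 8.84% and 7.64% of all genes, and 1, 1 and 0 in GLASTpos cells, which was Glul both times, beside 17.9%, 18.8% and 19.1%. DESeq2 called 0 of 6 in each of these 6 comparisons, and limma-voom with the title number as a random block called 1, Slc1a2 in GLASTpos cells at E4 (-0.43, adjusted p = 0.0115). The libraries did not overlap for 0, 0 and 1 member in GLASTneg cells, beside 2.13%, 2.44% and 1.26% of all genes, and for 0, 2 and 1 in GLASTpos cells, beside 0.935%, 1.58% and 3.76%.

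Slc1a2 in hindbrain GLASTneg cells was 5921, 7631, 6970, 5790 and 6436 CPM in controls. It ran from 6577 through a median of 7176 to 8268 CPM at E1, from 5966 through a median of 7216 to 8119 at E4 and from 4689 through a median of 5965 to 6685 at Ech, overlapping with the controls throughout. In GLASTpos cells it was 5390, 4960, 4936, 5260 and 5271 CPM in controls and ran from 4108 through a median of 4784 to 5722 CPM at E1 and from 2629 through a median of 4341 to 4794 at E4, and the 4 chronic libraries held 4203, 3555, 4412 and 3758 CPM. The E4 and Ech libraries of GLASTpos cells lay below all controls, with log2 fold changes of -0.31 ± 0.26 and -0.37 ± 0.29 (adjusted p = 0.63 and 0.57 by edgeR).

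Slc38a3 in hindbrain GLASTneg cells was 345, 492, 449, 589 and 551 CPM in controls and ran from 339 through a median of 372 to 426 CPM at E4. These ranges overlapped, with a log2 fold change of -0.36 ± 0.28 and a 95% interval of -0.91 to 0.20. Slc1a4 lay at 193 to 296 CPM in controls and 219 to 272 at E4, with an interval of -0.34 to 0.66. Both intervals exclude a fall as large as the one fitted in spinal cord at E4. In GLASTpos cells Slc38a3 lay at 99.8 to 159 CPM in controls and 88.5 to 191 at E4 (0.02 ± 0.28), and Slc1a4 at 93.6 to 129 and 59.7 to 149 CPM (0.15 ± 0.26).

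Glul had its largest hindbrain differences in GLASTpos cells. The controls held 1721, 2117, 1969, 2168 and 2081 CPM, and the libraries ran from 1850 through a median of 2956 to 4529 CPM at E1 and from 2416 through a median of 2754 to 4214 CPM at E4. All 6 E4 libraries of Glul lay above the 5 controls, and those at E1 overlapped with them. The log2 fold changes were 0.59 ± 0.24 and 0.56 ± 0.24 (adjusted p = 0.19 and 0.19 by edgeR), with 95% intervals of 0.12 to 1.05 and 0.09 to 1.02. In GLASTneg cells Glul was 2333 to 4172 CPM in controls and 3512 to 6088 at E4 (0.40 ± 0.24, adjusted p = 0.66).

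Slc1a3 in hindbrain GLASTneg cells was 1771, 1219, 1406, 1137 and 1331 CPM in controls and ran from 944 through a median of 1021 to 1134 CPM in chronic disease, without overlap (-0.41 ± 0.26, adjusted p = 0.75 by edgeR). At the other stages there, and at all stages in GLASTpos cells, Slc1a3 overlapped with its controls, and so did Glud1 and Slc1a4 in both populations. Glud1 was 815 to 1150 CPM in GLASTneg controls and 537 to 964 at E4, and 1278 to 1635 and 948 to 1623 CPM in GLASTpos cells. The 12 astrocyte markers of the hindbrain GLASTneg libraries summed to 68812 to 75663 CPM in controls and 57599 to 77173 at E4, where 1 of the 12 was called higher (Gfap, by 2.96 on the log2 scale) and 0 lower. The myeloid sum was 32 to 95.9 CPM in these controls and 136 to 642 at E4.

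The difference in response between regions was itself tested, as the log2 fold change in spinal cord minus that in hindbrain. Against hindbrain GLASTneg cells, 5 of 6 members responded more negatively in spinal cord at E4, beside 8.56% of all genes, and at Ech, beside 7.2%. Slc38a3 differed by -4.22 ± 0.42 and -3.72 ± 0.41, Slc1a4 by -3.88 ± 0.38 and -2.62 ± 0.37, and Slc1a2 by -3.61 ± 0.38 and -3.57 ± 0.38. Slc1a3 differed by -2.56 ± 0.37 and -2.07 ± 0.37, and Glud1 by -1.96 ± 0.29 and -1.96 ± 0.29. Glul was 0.12 ± 0.33 at E4 and -0.38 ± 0.33 at Ech, with 95% intervals of -0.53 to 0.77 and -1.03 to 0.27. Against hindbrain GLASTpos cells 5 of 6 were called at E4 (13.4% of all genes) and at Ech (13.3%). At E1, edgeR called 0 of 6 against either hindbrain population (0.214% and 2.07% of all genes), with 3 of 6 at an unadjusted p under 0.05 in each, beside 12.5% and 16.8% of all genes, and DESeq2 called 0 and 1. Without spinal cord E1 replicate 2, edgeR called 4 of 6 at E1 in each. Between the hindbrain populations, 0 of 6 responses differed at E1, E4 and Ech (0.00857%, 0.00857% and 0.06% of all genes), with 0 of 6 at an unadjusted p under 0.05, beside 8.93%, 8.96% and 11.2%, and 0 by DESeq2. By limma-voom with the title number as a random block, Slc1a3 was not called at E4 or Ech against either hindbrain population (adjusted p = 0.84 to 0.90). All of these comparisons share libraries with one another and with those of each stage against its controls, so their counts are not separate evidence.

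Among unimmunized controls, 2 of 6 members differed between spinal cord and hindbrain GLASTneg cells, beside 5.33% of all genes. Spinal cord held less Slc1a3 (179 ± 39.7 against 1373 ± 245 CPM, log2 fold change -2.94 ± 0.29, adjusted p = 9.7e-12 by edgeR), although both were gated as GLASTneg, and this call was lost by limma-voom with the title number as a random block (adjusted p = 0.57). It also held less Slc1a4 (117 ± 29.3 against 230 ± 40 CPM, -0.97 ± 0.27, adjusted p = 0.015), a call that was lost without hindbrain control replicate 2 or spinal cord control replicate 2. Slc1a2 was 3760 ± 665 against 6550 ± 764 CPM without overlap (-0.80 ± 0.27, adjusted p = 0.071). Glul (4173 ± 1952 against 3357 ± 704 CPM), Glud1 (800 ± 129 against 987 ± 152) and Slc38a3 (420 ± 158 against 485 ± 94.8) overlapped. The libraries thus did not overlap for 3 of 6, beside 7.11% of all genes. Oligodendrocyte markers summed to 14353 to 41867 CPM in these spinal cord and 1470 to 5102 CPM in these hindbrain libraries, and their part was not tested.

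Hindbrain GLASTneg and GLASTpos controls differed in 4 of 6 members, beside 13.5% of all genes, with 3 called higher in GLASTneg cells and Slc1a3 lower. Slc1a3 was 1373 ± 245 against 7166 ± 1503 CPM, as the sort had set, so its place in that count is no finding. Its adjusted p was 0.055 by limma-voom with the title number as a random block. GLASTneg cells held more Slc38a3 (485 ± 94.8 against 129 ± 27.2 CPM, log2 fold change 1.91 ± 0.30, adjusted p = 2.1e-06 by edgeR) and more Slc1a4 (230 ± 40 against 110 ± 14.6 CPM, 1.07 ± 0.27, adjusted p = 0.003). They also held more Glul (3357 ± 704 against 2011 ± 178 CPM, 0.74 ± 0.25, adjusted p = 0.033), but this call was lost without GLASTneg replicate 1, 2 or 3 and without GLASTpos replicate 1, 2, 3 or 5. Glud1 was 987 ± 152 against 1477 ± 152 CPM (-0.58 ± 0.22, adjusted p = 0.059), and Slc1a2 6550 ± 764 against 5163 ± 203 CPM (0.34 ± 0.27, adjusted p = 0.42). The libraries overlapped for 0 of the 6, Slc1a3 among them, and 12.5% of all genes did not overlap. The median log2 fold change over all genes in this comparison was 0.109 and 0.161 with RLE size factors, so that these values stand that much higher than relative to the typical gene. Bergmann glia are the radial astrocytes of the cerebellum, and their 8 markers summed to 950 to 1233 CPM in GLASTneg and 4779 to 6332 CPM in GLASTpos controls. The 10 oligodendrocyte markers summed to 1470 to 5102 CPM in GLASTneg and 1170 to 1335 CPM in GLASTpos controls, with 9 called higher in GLASTneg cells and 1, Cnp, lower (-1.23), at a median log2 fold change of 2.93. The part of these markers was not tested. Sheet numbers were at most 56 in all hindbrain GLASTneg and at least 61 in all hindbrain GLASTpos libraries, so the sheet range cannot be told apart from the population here, nor in control spinal cord (60 and up) against hindbrain GLASTneg (up to 51).

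Over the 12 groups the order of the means differed between members. Slc1a2 was highest in the hindbrain GLASTneg groups (5819 to 7337 CPM), followed by hindbrain GLASTpos (3982 to 5163) and spinal cord, whose E4 and Ech means of 336 and 282 CPM did not differ beyond their spread. Slc1a3 was highest in the GLASTpos groups (6179 to 8935 CPM), as the sort had set. It was 1030 to 1402 CPM in hindbrain GLASTneg and lower in spinal cord, from 179 in controls to 30.8 at E4, although both were gated as GLASTneg. Slc1a4 was highest in hindbrain GLASTneg (197 to 265 CPM) and lowest in spinal cord at E4 (8.89). Slc38a3 was 379 to 485 CPM in hindbrain GLASTneg and 420 in control spinal cord, 97.6 to 139 in hindbrain GLASTpos and 17.7 in spinal cord at E4. Glud1 was highest in hindbrain GLASTpos (1322 to 1531 CPM). Glul alone of the 6 had its highest mean in spinal cord at E4 (5974 CPM), and its lowest in hindbrain GLASTpos controls (2011 CPM).

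The genes whose log2(CPM + 1) ran most like each member over the 66 libraries are given as a description, since the libraries share populations, stages and cell makeup. Slc1a2 was most like Atp1b2 (Pearson's r 0.983), which carries the ACSA-2 epitope of the sort, and Slc4a4 (0.98), both on the astrocyte list. Slc1a3 was most like Mxra8 (0.975), Sirpa (0.975) and Elmo2 (0.973). Slc1a4 was most like Fgfr3 (0.963), Acsl6 (0.961) and Clu (0.958). Glud1 ran most like Ptch1 (0.97), a receptor of Sonic hedgehog, Npas3 (0.961) and Ahcyl1 (0.957). Slc38a3 ran most like Gm3764 (0.978), Nim1k (0.96) and Tmem44 (0.954). For Glul the closest of the 10972 genes whose mean reached 5 CPM was Mat2a (0.763), an enzyme that makes S-adenosylmethionine. Over the 22 spinal cord libraries alone Glul was most like Grm3 (0.909). Between members, r over the 66 libraries was 0.953 for Slc1a2 with Slc1a4, 0.921 for Slc1a4 with Slc38a3 and 0.914 for Slc1a3 with Glud1. For Glul with each of the other 5 it lay between -0.453 and -0.139.

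Of 24 other genes that move or convert glutamate, glutamine and serine, 1 was called higher and 2 lower in spinal cord at E1, 2 higher and 5 lower at E4, and 2 higher and 6 lower at Ech, beside 8.42%, 22.4% and 18.7% of all genes called in either direction. Their median log2 fold change was 0.15, 0.06 and -0.02. Slc25a18, a mitochondrial glutamate carrier, had log2 fold changes of -1.83 at E1, -3.74 at E4 and -4.56 at Ech. Slc7a11, which exports glutamate in exchange for cystine, had -1.78 at E4 and -4.65 at Ech. Slc38a1, a glutamine importer, had -1.16 at E1 and -2.08 at E4, and rose by 1.22 from E4 to Ech. Psat1, an aminotransferase of serine synthesis that uses glutamate, rose by 1.11 at E1 and 1.48 at E4. Slc1a1, the glutamate transporter EAAC1, rose by 2.12 at Ech, at a mean of 14.6 CPM over all libraries, and Gpt, alanine aminotransferase, fell by 1.24. In each hindbrain comparison of a stage with its controls at most 1 of the 24 was called. Slc38a2, another glutamine transporter, rose by 1.40 at E1 and 1.47 at E4 in GLASTneg cells and by 1.40 at E4 in GLASTpos cells. In GLASTpos cells Slc7a11 fell by 1.49 at E1, and Got1, an aspartate aminotransferase, rose by 1.45 at Ech.

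**Figure D5:**
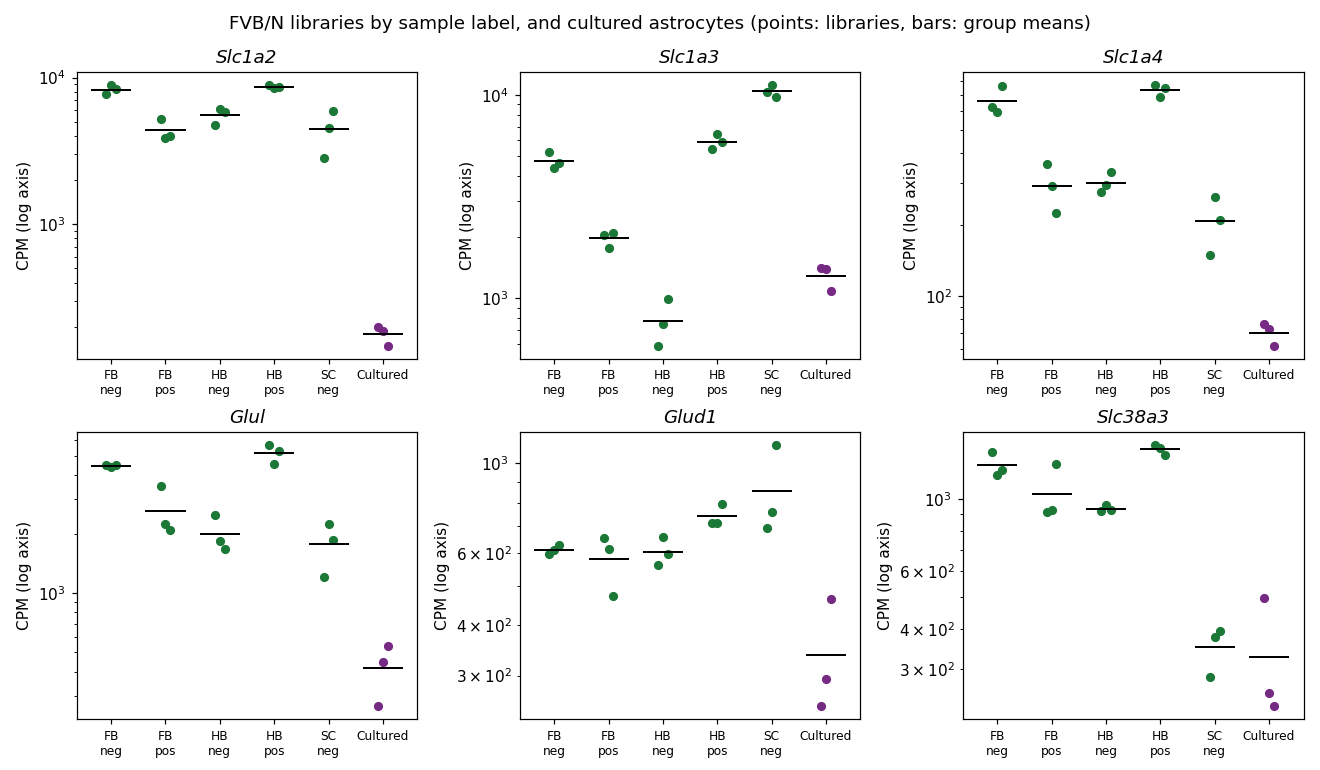
Level of each member in CPM (log axis) in the 15 FVB/N libraries, grouped by sample label, and in 3 cultures (FB, forebrain; HB, hindbrain; SC, spinal cord; neg and pos, GLASTneg and GLASTpos), all scaled in one fit. Points are libraries and bars are means. The cultured libraries lie below all isolated libraries for Slc1a2, Slc1a4, Glul and Glud1.

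In FVB/N mice the members were present in all 5 populations. The differences by label stand beside the conflict of names, in which the markers of position went with the other names. Slc1a3, the check of the sort, was 769 ± 209 CPM in libraries labelled hindbrain GLASTneg and 5812 ± 398 in those labelled hindbrain GLASTpos. It was, however, 4652 ± 376 CPM in libraries labelled forebrain GLASTneg and 1936 ± 182 in those labelled forebrain GLASTpos, and it was highest in those labelled spinal cord GLASTneg (10148 ± 790 CPM). By the other names the highest group is hindbrain GLASTpos and the lowest spinal cord GLASTneg.

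By label, 4 of 6 members were called lower in hindbrain GLASTneg than in hindbrain GLASTpos libraries, beside 4.3% of 14957 genes. By the other names these are spinal cord GLASTneg and forebrain GLASTpos libraries. Glul held 2427, 1848 and 1661 against 5641, 4372 and 5275 CPM (log2 fold change -1.36 ± 0.20, adjusted p = 2.4e-07 by edgeR). Slc1a4 held 266, 293 and 329 against 768, 657 and 751 CPM (-1.30 ± 0.25, adjusted p = 7.5e-05). Slc1a2 held 4611, 6060 and 5815 against 8865, 8152 and 8575 CPM (-0.63 ± 0.19, adjusted p = 0.028), a call that was lost in 10 of 12 alternatives, namely without any one of the 6 libraries, with RLE size factors, with filterByExpr, by DESeq2 and under the other names. The libraries overlapped for 0 of the 6 members, and 20% of all genes did not overlap. Slc1a3 was -2.92 ± 0.20, where by the other names region and sort both differ, so this value cannot be credited to the sort alone. With the libraries regrouped by the other names, hindbrain GLASTneg against GLASTpos called 2 of 6, beside 4.11% of all genes. Slc38a3 was higher in GLASTneg cells by 1.58 ± 0.22 (adjusted p = 5.6e-08 by edgeR), and Slc1a3, set by the sort under these names, was -2.39 ± 0.19. Slc1a4 and Glul were then 0.50 ± 0.25 and 0.57 ± 0.20, above 0 and not called.

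In the libraries labelled forebrain GLASTneg against forebrain GLASTpos, 4 of 6 were called higher, beside 1.32% of all genes. By the other names the libraries labelled forebrain GLASTpos are hindbrain GLASTneg. Slc1a3 differed by 1.26 ± 0.19, Slc1a4 by 1.18 ± 0.25, Slc1a2 by 0.92 ± 0.19 and Glul by 0.77 ± 0.20, and the call of Glul was lost without GLASTneg replicate 1 or 3 or GLASTpos replicate 2 or 3. By the other names edgeR called 0 of 6, beside 0.181% of all genes, with 0 of 6 at an unadjusted p under 0.05, beside 3.56% of all genes, and the 6 log2 fold changes lay between -0.32 and -0.07. DESeq2 was not run under the other names. Slc1a3, the sorted antigen, was -0.32 ± 0.18 there.

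Between the libraries labelled spinal cord and hindbrain GLASTneg (hindbrain GLASTpos and spinal cord GLASTneg by the other names), 2 of 6 were called, beside 7.47% of all genes. Slc1a3 was higher by 3.73 ± 0.21 and Slc38a3 was at -1.44 ± 0.22. With the libraries regrouped by the other names, 1 of 6 was called, beside 1.4%, and it was Slc1a3, lower in spinal cord (-1.34 ± 0.19). Slc38a3 was 277, 368 and 378 CPM in libraries labelled spinal cord GLASTneg and 886 to 1462 CPM in the other 12, without overlap, as for 4.46% of all genes. Glud1 was called in 0 of the 3 FVB/N comparisons under either set of names, with 0 also by DESeq2 under the labels, and had group means of 569 to 828 CPM.

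All 6 members were lower in cultured astrocytes than in the mean of the 5 isolated groups, beside 36% of 17126 genes called in either direction, 4496 higher and 1677 lower. Slc1a2 held 201, 186 and 148 CPM in culture and 2843 to 8906 CPM in isolated libraries, 33.6-fold lower (log2 fold change -5.07 ± 0.23, adjusted p = 8.6e-22 by edgeR). Glul was 267, 449 and 541 against 1210 to 5667 CPM (-2.80 ± 0.22), and Slc1a4 76.2, 73.3 and 62 against 149 to 771 CPM (-2.46 ± 0.23). Glud1 was 252, 294 and 464 against 471 to 1109 CPM (-0.99 ± 0.20, adjusted p = 8.1e-05). These 4 did not overlap with any isolated library, beside 17.9% of all genes. Slc38a3 (499, 254 and 231 CPM, -1.47 ± 0.21) overlapped with the libraries labelled spinal cord GLASTneg (285 to 393). Slc1a3 (1407, 1391 and 1084 CPM, -1.39 ± 0.17) lay above those labelled hindbrain GLASTneg (585 to 996) and below the others. The median log2 fold change over all genes was 0.431, and 0.317 with RLE size factors, so relative to the typical gene each member was lower by that much more. The cultures differ from the isolated cells in strain, age, region, conditioned medium, RNA extraction and sorting as well as in culture, which cannot be told apart. The 12 astrocyte markers summed to 4865 to 5372 CPM in culture and 36841 to 63241 in isolated libraries, and the 12 myeloid markers to 416 to 3305 and 17.5 to 244 CPM. Their part was not tested.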

How the data were processed

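Libraries of sorted or cultured mouse astrocytes were made with a 3′ end kit (QuantSeq) and sequenced as single reads. Per the labels and the study's methods, the authors aligned reads with HISAT 0.1.5 to GRCm38 and deposited raw counts per gene from HTSeq 0.6.1p1, and whether counting used strand is not stated. The members and gene lists were chosen with earlier results of these data known. Counts were tested with edgeR 4.0.16 (R 4.3.3; TMM scaling, quasi-likelihood, Benjamini-Hochberg over all genes) among genes whose counts summed to 10 or more, in one fit of 66 EAE libraries (12 groups), one of 15 FVB/N libraries and one of those with 3 cultures. The study's methods use DESeq2, which was run as an alternative (1.42.0), as were limma-voom and limma-trend (3.58.1), both with the title number as a random block, RLE size factors, other filters, a fold limit, covariates and leaving out each library. Limma-trend, levels relative to the astrocyte markers and leaving out the E4 library with the highest myeloid sum were chosen after seeing the data. A sheet number is a number in the library titles, and a title number is the first number in the brackets of a title. Relative levels were compared by exact permutation (scipy 1.17.1).

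Libraries held 1313682 to 4895220 (EAE), 416768 to 1269316 (FVB/N) and 2183464 to 8188074 counts (cultures), 0 columns lacked a sample, and 0 pairs of libraries were identical. Named in each comparison were the 6 members and, from a list of 24 other glutamate, glutamine and serine genes, at most 4 called genes with the largest change and a mean of at least 5 CPM in the libraries of the fit. Text names these for the stage comparisons. Genes most like a member were the top 3 by Pearson's r, and some items are not reported here. Tested on simulated counts for spinal cord E4 against controls (19039 genes), the fit recovered 12.1%, 97.3% and 100% of genes changed by 1, 2 and 3 on the log2 scale. These counts were drawn with the same fixed spread for every gene, not with the spread each gene had here. The study's list of libraries was matched to the FVB/N columns by proportional values over 500 genes (largest deviation 0.000492%, next best column at least 87.8%), which gave the other names. The SE of an edgeR log2 fold change is its absolute value divided by the square root of the F statistic. Intervals are normal 95% intervals from that SE.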

Additional observations from a re-analysis of the deposited data

Results flagged for a closer look

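Among 72 combinations of a member and an EAE group, 6 had 1 library so far from the rest that the gap exceeded the 95% critical value of Dixon's test, which chance gives in about 1 in 20. Slc1a2 (2629 CPM) and Slc1a4 (59.68 CPM) were lowest in the same hindbrain GLASTpos library at E4, replicate 1. Slc1a3 was lowest in spinal cord E4 replicate 4, at 8.942 CPM. Slc1a4 was highest in spinal cord Ech replicate 2, at 30.56 CPM, and without that library its call between E4 and Ech was lost. Glul was highest in hindbrain GLASTneg E4 replicate 5, at 6088 CPM, and in hindbrain GLASTpos E4 replicate 6, at 4214 CPM.

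A test of the difference itself found that 5 members responded to disease differently in spinal cord and hindbrain. Against hindbrain GLASTneg cells, the log2 difference in response at E4 and Ech was -3.607 and -3.566 for Slc1a2, -2.560 and -2.072 for Slc1a3, -3.879 and -2.617 for Slc1a4, -1.964 and -1.965 for Glud1, and -4.221 and -3.718 for Slc38a3. Against hindbrain GLASTpos cells it was -3.169 and -3.361 for Slc1a2, -2.647 and -2.273 for Slc1a3, -3.865 and -2.865 for Slc1a4, -2.074 and -2.115 for Glud1, and -4.595 and -3.848 for Slc38a3. The 12 astrocyte markers were called lower in the response of spinal cord in 11 of 12 cases at E4 and at Ech against each hindbrain population, and their part in the members' differences was not tested.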

How the results depend on the processing

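Of 3672 values of a member under an alternative, 3454 kept their direction and their side of the threshold, 79 lost a call, 41 gained one and 98 turned direction, 18 of them called in at least one of the fits compared and 80 in neither. Below, limma-voom and limma-trend were each run with the title number as a random block. In spinal cord at E1, where 3 members were called, the count was 1 with a log2 fold change beyond 1, and 0 in a fit of one population, with the sheet range as a covariate, among sheet numbers of 57 or higher and relative to the astrocyte markers. Relative to those markers the count at E4 was 2 (Glul and Glud1, both higher than in controls). The count at Ech covered Slc1a3, Slc1a4, Glul and Glud1, all higher, and no fall was called at either stage. Between E4 and E1 it was 3 among sheet numbers of 57 or higher, where the E4 group is 1 library and its spread is assumed to be that of the others. Between Ech and E4, where 2 were called, it was 1 with a log2 fold change beyond 1, RLE size factors, the replicate block, limma-voom, without the library whose region field disagrees and without the E4 library with the highest myeloid sum, and 0 in the other 3 spinal cord fits (one population, sheet covariate, sheets of 57 or higher). In hindbrain GLASTpos cells at E4 limma-voom called 1. Between spinal cord and hindbrain GLASTneg controls the fold limit gave 1. The response at E1 against hindbrain GLASTneg cells gave 2 by limma-voom, and that against GLASTpos cells gave 1 without a filter, with filterByExpr, by DESeq2, by limma-trend and with the replicate block. Limma-voom also lost the call of Slc1a3 at all 3 stages in spinal cord, between E4 and E1, in both control comparisons and in the 4 responses of spinal cord at E4 and Ech, and that of Glul between the hindbrain controls, all of which limma-trend kept. It called Glul in spinal cord at E4 (0.71) and between E4 and E1 (0.81). In FVB/N, the other names gave 2 for hindbrain, 0 for forebrain and 1 for spinal cord against hindbrain, and the fold limit gave 2 for forebrain. The causes were not tested.

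All 18 with a call turned direction under the other names or relative to the astrocyte markers. Under the other names, hindbrain GLASTneg against GLASTpos gave Slc1a4 0.50, Glul 0.57 and Slc38a3 1.58, forebrain gave Slc1a2 -0.073, Slc1a3 -0.32, Slc1a4 -0.17, Glul -0.22, Glud1 -0.28 and Slc38a3 -0.17, and spinal cord against hindbrain gave Slc1a3 -1.34, Slc1a2 0.36 and Slc1a4 0.056. Relative to the astrocyte markers, spinal cord at E1 gave Slc1a2 0.16, Slc1a4 0.31 and Glud1 0.31, E4 gave Slc1a2 0.022, Slc1a3 1.07, Slc1a4 0.032 and Glud1 1.36, and Ech gave Slc1a3 1.31, Slc1a4 0.93, Glul 3.33, Glud1 1.59 and Slc38a3 0.016. Among these, Glud1 and Slc38a3 in forebrain, Slc1a2 and Slc1a4 in spinal cord against hindbrain, and Slc1a2 and Slc1a4 at E1 were not called in either fit. Nor were the other values that turned direction. By limma-voom, Glul was -0.10 in spinal cord at E1 and 0.20 in its E4 response against GLASTpos cells, Slc1a3 was -0.074 between Ech and E4, and the hindbrain gave Slc1a3 -0.077 (GLASTneg, E4), Slc1a3 -0.047 and Slc38a3 -0.0046 (GLASTpos, E4), and Slc1a4 -0.068 and Glud1 0.028 (GLASTpos, Ech). Limma-trend gave -0.025 for that Slc1a4 and 0.0039 for Glul in the E1 response against GLASTneg cells, which was 0.013 without the library whose region field disagrees. Between Ech and E4 the sheet covariate gave Slc1a3 -0.16 and Glud1 -0.046, sheets of 57 or higher gave Slc1a2 0.70 and Slc1a3 -0.17, and leaving out the E4 library with the highest myeloid sum gave Glud1 -0.084, and Glul 0.10 in the E4 response against GLASTpos cells. Slc1a4 in the E4 response between hindbrain populations was 0.0039 with RLE size factors and 0.0037 by DESeq2.

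Leaving out 1 library at a time gave 1 to 5 members called in spinal cord at E1 (5 without E1 replicate 2), 5 to 6 at E4 (6 without control replicate 3 or E4 replicate 2) and 5 to 6 at Ech (6 without control replicate 1). The range was 5 to 5 between E4 and E1 and 1 to 3 between Ech and E4 (3 without E4 replicate 4). In each hindbrain comparison with controls and between the hindbrain responses it was 0 to 0. It was 1 to 2 between spinal cord and hindbrain controls, 3 to 4 between the hindbrain controls, 0 to 4 for each response of spinal cord at E1 (4 without spinal cord E1 replicate 2) and 5 to 5 at E4 and Ech. In FVB/N it was 3 to 3 for hindbrain, where Slc1a2 was lost each time, 3 to 4 for forebrain and 2 to 3 for spinal cord against hindbrain, with Slc1a2 called at -0.61 without spinal cord replicate 3. It was 6 to 6 for the cultures. Log2 fold changes crossed 0 for uncalled members. Glul ran from -0.22 to 0.27, -0.061 to 0.42 and -0.22 to 0.26 in the responses of spinal cord at E1 and E4 against GLASTneg and at E4 against GLASTpos cells, and from -0.41 to 0.014 in FVB/N spinal cord against hindbrain. Between Ech and E4 Slc1a3 ran from -0.15 to 0.13 and Glud1 from -0.061 to 0.26. In hindbrain GLASTneg cells Slc1a3 ran from -0.046 to 0.14 at E4 and Slc38a3 from -0.13 to 0.055 at Ech. In GLASTpos cells Glud1 ran from -0.089 to 0.12 at E1, Slc1a3 from -0.030 to 0.24 and Slc38a3 from -0.12 to 0.11 at E4, and Slc1a4 from -0.16 to 0.18, Glud1 from -0.14 to 0.082 and Slc38a3 from -0.064 to 0.23 at Ech. Between the hindbrain responses Slc1a3 ran from -0.061 to 0.21 and Slc1a4 from -0.12 to 0.13 at E4, and Slc38a3 from -0.040 to 0.25 at Ech. In FVB/N forebrain Glud1 ran from -0.047 to 0.16.

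The mean correlation of the deviations of same-numbered libraries was -0.003 by replicate number and -0.007 in FVB/N, so these numbers were not treated as pairing libraries. By title number, which leaves out the further number of some titles, it was 0.037, with 8 of 40 pairs over 0.1 (highest 0.213). Whether libraries of one number share animals is not given in the sources used here. The consensus correlation was 0.0384 in limma-voom and 0.0235 in limma-trend. With the replicate block, Slc1a3 in hindbrain GLASTneg cells at E4 was -0.00040, 1 member was called between Ech and E4, where Slc1a4 was 0.87 and missed the threshold, and 1 in the E1 response against GLASTpos cells, Slc1a3 at -1.30. It changed no other call. At the depth of the FVB/N libraries, simulated hindbrain changes of 1, 2 and 3 on the log2 scale were recovered in 4.11%, 54% and 93.8% of genes (14652 genes). The simulation gave every gene the same fixed spread, while members were called in the FVB/N fit at changes below 1. It therefore sets no limit of detection for them.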
